A study of Mus musculus with 22 samples.

Results

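The genes described here are the protein-coding genes at the far end of mouse chromosome 4, from Tnfrsf8 at its start to position 156254501 on mm10, a stretch of 10.987 Mb that begins at position 145267137. The stretch was chosen by the counts of the same 6 Rag2 libraries, which had set it apart in an earlier comparison of the strains. A gene had to have at least 60 counts summed over the 6 Rag2 libraries, and 143 of the 54532 rows of the tables met the rule. Of 172 protein-coding rows in the stretch, 25 had fewer counts and 4 are not reported here. The strain comparison therefore fixed the choice, so the values of Rag2 gc KO and Rag2 KO are given as a description. Calls of the model in that comparison are counted to describe the members and support nothing, and no p is given. The wild-type comparisons did not enter the choice and were tested.

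All libraries are bulk RNA from mouse retina with choroid. Rag2 gc KO stands for Rag2-/-γc-/- mice, which lack Rag2 and the common gamma chain, and Rag2 KO for Rag2-/- mice, which lack Rag2 alone, with 3 libraries each, all 3 days past the laser. Wild-type (WT) mice gave 4 controls without choroidal neovascularisation (CNV) and 4 libraries for each of day 3, day 7 and day 14 of laser-induced CNV. The Rag2 protein is needed to assemble the antigen receptors of T and B cells, and the common gamma chain, encoded by Il2rg, is a receptor subunit that natural killer (NK) cells need to develop. The laser breaks the membrane under the retina so that choroidal vessels grow through it, and the strain pair asks what NK cells do in that model. Per the labels' protocols the mice were adult C57BL/6J. Where the Rag2 lines came from, and on which background they were kept, is not given in the sources used here. No label ties a library to an animal of its own, so the spread between libraries may be partly technical.

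The end of chromosome 4 carries a cluster of zinc finger genes, most of which encode DNA-binding proteins that in mouse silence inserted retroviruses and differ in number between strains. Genes of tumour necrosis factor (TNF) receptors that act on lymphocytes are scattered along the stretch, as are housekeeping genes of glycolysis and mitochondrial metabolism, genes of sensory cells and neurons, and regulators of transcription.

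Total counts were 27227847 to 30315086 per library in the Rag2 set and 15033983 to 16848254 in the WT set. Il2rg had 0, 0 and 0 counts in Rag2 gc KO, against 37, 62 and 28 counts in Rag2 KO. Rag2 itself had 0, 1 and 0 counts in Rag2 gc KO, against 0, 0 and 0 counts in Rag2 KO, and at most 0.246 in counts-per-million (CPM) in WT, so it checked no label. The NK cell list took 0.000713% to 0.000961% of counts in Rag2 gc KO and 0.000766% to 0.000905% in Rag2 KO. Most of these counts were Eomes and Tbx21, and the other 7 genes of the list had 0, 1 and 1 counts in Rag2 gc KO, against 2, 35 and 4 counts in Rag2 KO. Rod photoreceptor genes took 3.61% to 4.82% of counts in Rag2 gc KO and 4.54% to 5.36% in Rag2 KO, and pigment epithelium genes 0.131% to 0.158% and 0.115% to 0.141%, so the labelled tissue was present in each. The lens list took 0.0279% to 1.01% of counts in Rag2 gc KO and 0.276% to 0.979% in Rag2 KO, and microglia and macrophage genes 0.00812% to 0.0119% and 0.00543% to 0.00727%. The part of these markers in the results was not tested. In bulk tissue, fewer cells of a type and less RNA per cell cannot be told apart.

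The upstream regions of Tnfrsf8 and Espn are shown because these genes mark the stretch and are described below. Each is the 250 bases before the RefSeq start, from the GRCm38.p6 build and on the minus strand, with matches to the GC box (GGGCGG, either strand) in capitals. Tnfrsf8 (chr4:145315165-145315414) held 1 such match and Espn (chr4:152152390-152152639) held 2.
Tnfrsf8: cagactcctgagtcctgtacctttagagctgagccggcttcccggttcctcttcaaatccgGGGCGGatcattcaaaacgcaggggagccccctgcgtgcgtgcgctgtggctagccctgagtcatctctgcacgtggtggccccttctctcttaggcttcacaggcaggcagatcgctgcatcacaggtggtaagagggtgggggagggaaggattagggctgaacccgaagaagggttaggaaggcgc
Espn: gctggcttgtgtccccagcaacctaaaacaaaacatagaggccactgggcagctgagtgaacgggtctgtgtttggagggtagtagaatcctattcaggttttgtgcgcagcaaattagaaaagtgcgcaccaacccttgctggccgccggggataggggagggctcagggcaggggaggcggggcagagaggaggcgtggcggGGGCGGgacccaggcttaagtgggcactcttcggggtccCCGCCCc
The Eno1 stretch is the coding part of exon 8 (chr4:150246570-150246767, plus strand, GRCm38). It is shown because Eno1 has a near-identical copy, Eno1b, whose counts are described below. Capitals mark the 4 of its 198 bases that differ from Eno1b.
Eno1: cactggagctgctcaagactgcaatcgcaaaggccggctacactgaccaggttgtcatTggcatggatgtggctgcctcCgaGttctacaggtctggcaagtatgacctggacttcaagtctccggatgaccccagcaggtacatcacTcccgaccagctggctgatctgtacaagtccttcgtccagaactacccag

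In the RefSeq windows, from 250 bases before a gene's start to 50 bases after it, 117 members had an entry. The GC box was in 69.2% of them and in 35.9% of all 27025 windows, the CCAAT box (CCAAT) in 40.2% and 37.9%, the TATA box (TATAAA) in 5.13% and 14.2%, and the cAMP response core (TGACGTCA) in 0.855% and 1.88%, on either strand. The median number of CpG pairs was 22 in the members' windows, 11 in those of the 13 matched members that were called between the strains, and 7 in all windows. A match describes letters, not a bound site. The 27025 windows were 1 for each gene, without the members' filters on gene type and counts. Members took the start nearest to the deposited gene start, and the 27025 windows the first start listed. No set of genes matched to the members was compared, so the shares are not read as traits of the stretch.

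Between the strains, the stretch held genes that were nearly silent in 1 strain and expressed in the other, in either direction. Tnfrsf8, Gm16503 and Zfp982 were found almost only in Rag2 gc KO, and Zfp990 almost only in Rag2 KO. Zfp984, Miip and Espn were over 2-fold higher in Rag2 gc KO, and Masp2, Zfp992 and Ttc34 were over 2-fold lower. Of the 142 members that passed edgeR's filter on low counts, 20 had an adjusted p under 0.05, here "called", 12 higher and 8 lower. Over all 18923 genes tested, 0.465% were called, 0.211% higher and 0.254% lower. The CPM ranges of the strains did not overlap for 70 members, 37 higher and 33 lower, where the share over all genes was 22.1%, made of 11.5% higher and 10.6% lower. The median size of the log2 fold change was 0.233 over the members and 0.151 over all genes, and a difference of at least 2-fold was seen in 11.3% of members and 3.41% of all genes. As the strain contrast picked the stretch, nothing is read from these shares. In 7 members, 1 strain had fewer than 30 counts and the other strain at least 30. Of these, Tnfrsf8, Zfp990, Zfp982 and Gm16503 are among those called, and in them the other strain carried the gene over the count minimum. With 1 library left out, which also leaves fewer samples, the count of called members was lower. It was 9 without Rag2 gc KO replicate 2 and 12 without replicate 3. Without Rag2 KO replicates 1, 2 and 3 it was 11, 6 and 4. DESeq2 called 38, and 3.66% of all genes. With 1 library left out at a time, the calls of Zfp982, Ttc34 and Ccnl2 were lost in 6 of 6 fits, and those of Gm16503, Zfp992, Rnf207 and Ssu72 in 5. Eno1 and Masp2 lost theirs in 4 and Zfp984 in 3.

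The first 3 Mb of the stretch held 10 of the 20 called members, which by windows of 1 Mb were 2 of 2, 1 of 3 and 7 of 19 genes. The last window held 4 called of 41. Before the stretch, edgeR called 0 of 267 genes over 20 Mb and DESeq2 15, while 48 had an unadjusted p under 0.05. The ranges of 27.3% did not overlap. Over all genes tested, edgeR called 0.465%, DESeq2 called 3.66%, and the ranges of 22.1% did not overlap. The share with an unadjusted p under 0.05 is not given here. As the strain contrast set where the stretch begins, nothing is read from the counts of these 267 genes. The nearest of these was Tnfrsf1b, another TNF receptor gene, with 11.0, 7.03 and 9.49 CPM in Rag2 gc KO, against 2.81, 5.56 and 3.84 CPM in Rag2 KO, a log2 fold change of 1.17 ± 0.27 (SE) that was not called. Further out, Vps13d had -0.10 and Dhrs3 -0.29. After the stretch, Vmn2r125 had 0 counts in every library. On the count minimum, Nppa (62 counts), Gm10563 (64) and Gm13090 (75) were just inside, and Rbp7 (50), Zfp993 (43) and Zfp988 (39) just outside.

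**Figure D1:**
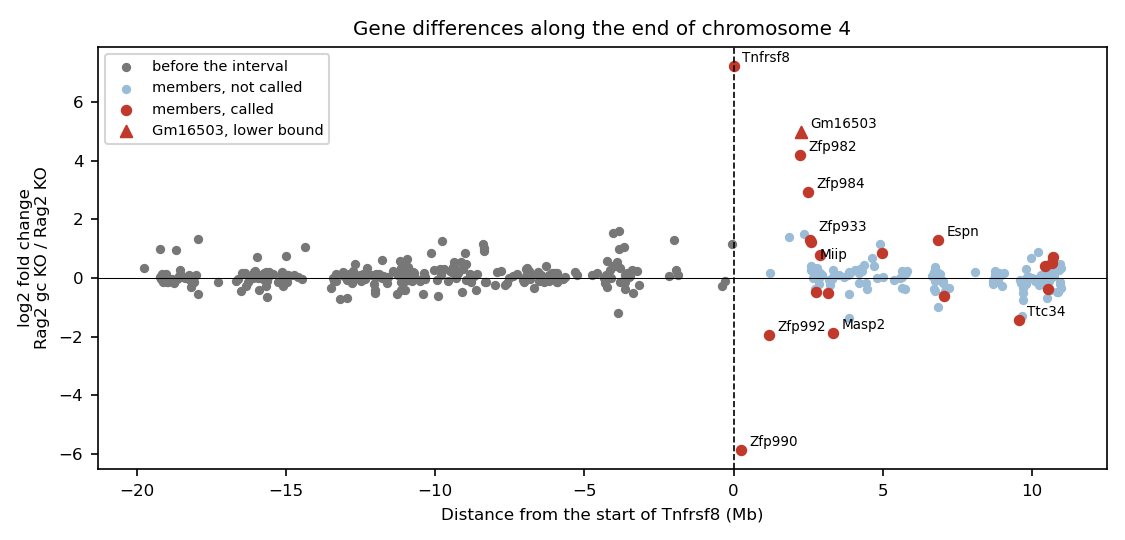
Log2 fold change of Rag2 gc KO over Rag2 KO (vertical axis) for protein-coding genes by distance in Mb from the start of Tnfrsf8 (horizontal axis), with genes before the stretch in grey, members in blue and called members in red. Gm16503 is a triangle at its lower bound of 4.97, and the red points reach 7.22 for Tnfrsf8 and -5.87 for Zfp990, while none of the 267 grey genes exceeds 1.59 in size.

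Of the TNF receptor family, which sends survival and activation signals in immune cells, 6 members were tested and Tnfrsf8 alone was called. Over all genes tested, 0.465% were called. Tnfrsf8 encodes CD30, a receptor known from activated lymphocytes. It had 279, 196 and 259 counts in Rag2 gc KO, against 1, 1 and 3 counts in Rag2 KO. All Rag2 gc KO libraries lay far above all Rag2 KO libraries, a log2 fold change of 7.22 ± 0.38 (SE). The ratio of summed counts was 160-fold, with an exact 95% interval of 68.3 to 495 that covers counting error only. Tnfrsf25, a death-domain receptor of T cells, had 2.35, 1.84 and 0.885 CPM in Rag2 gc KO, against 3.07, 2.64 and 4.37 CPM in Rag2 KO (log2 fold change -0.99 ± 0.37, SE). Tnfrsf14, the herpesvirus entry mediator, had 0.634, 0.180 and 0.389 CPM in Rag2 gc KO, against 0.759, 0.937 and 1.26 CPM in Rag2 KO. For these genes the strains did not overlap, but neither was called. The ranges of Tnfrsf4 (OX40), Tnfrsf9 (4-1BB) and Tnfrsf18 (GITR) overlapped between the strains.

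The zinc finger cluster held genes that were higher and genes that were lower. Of the 8 members of the first 3 Mb that are annotated as zinc finger proteins, 3 were called higher and 2 lower. Over all genes tested, 0.211% were called higher and 0.254% lower. Zfp982 and Zfp990, among those called, met the count minimum through 1 strain, and nothing is read from the number called. Zfp990 had 1, 0 and 2 counts in Rag2 gc KO, against 42, 84 and 87 counts in Rag2 KO. It was 65.1-fold lower by summed counts, with an exact counting interval of 21.96 to 318. Gm16503, a predicted gene that lies among them, had 22, 20 and 44 counts in Rag2 gc KO, against 0 counts in each Rag2 KO library. With a floor of 3 counts over the group it was at least 31.3-fold higher. Zfp982 had 18, 18 and 37 counts in Rag2 gc KO, against 0, 2 and 2 counts in Rag2 KO. In these 3 genes the strain with the lower level had 4 counts or fewer in all.

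Other zinc finger genes were expressed in either strain at different levels. Zfp984 had 3.24, 3.53 and 3.08 CPM in Rag2 gc KO, against 0.165, 0.669 and 0.463 CPM in Rag2 KO, a log2 fold change of 2.91 ± 0.42 (SE). Zfp933 had 20.6, 26.6 and 21.7 CPM in Rag2 gc KO, against 7.92, 11.3 and 8.80 CPM in Rag2 KO (1.30 ± 0.16). Zfp992 ran the other way, with 1.38, 1.55 and 0.920 CPM in Rag2 gc KO, against 3.73, 6.46 and 4.87 CPM in Rag2 KO (-1.96 ± 0.30). None of the 3 overlapped between strains. Zfp991 and Zfp979 lay apart at 1.39 and 1.498 on the log2 scale without being called, while Zfp981 (0.16) overlapped. Zfp988, under the count minimum and so no member, had 16, 19 and 4 counts in Rag2 gc KO, against 0 in each Rag2 KO library.

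Counts of this cluster are uncertain, because its genes share sequence with each other and with nearby copies. Of the 50-base stretches in the GENCODE M21 transcripts of a member, a median of 34.5% also occurred in another gene for the 8 zinc finger members, and 0% for the other members. The share was 82.2% for Zfp991, 54.5% for Zfp984, 43.0% for Zfp992, 29.1% for Zfp990 and 11.9% for Zfp982. Gm16503 had 0%. How the authors' counting treated reads that match several genes is not given in the sources used here.

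Espn and Miip, from separate role lists, differed at well-measured levels. Espn encodes espin, which bundles actin in the stereocilia of hair cells. It had 89.4, 112 and 93.9 CPM in Rag2 gc KO, against 39.6, 37.1 and 45.4 CPM in Rag2 KO, a log2 fold change of 1.28 ± 0.11 (SE). Miip encodes a protein that in human cells inhibits migration. It had 40.8, 38.2 and 39.9 CPM in Rag2 gc KO, against 18.5, 15.2 and 17.3 CPM in Rag2 KO (1.22 ± 0.09). In either gene every Rag2 gc KO library lay above every Rag2 KO library. Of the 7 members on the list of cytoskeleton, cilia and motor genes, Espn was the only 1 called. Over all genes tested, 0.465% were called.

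**Figure D2:**
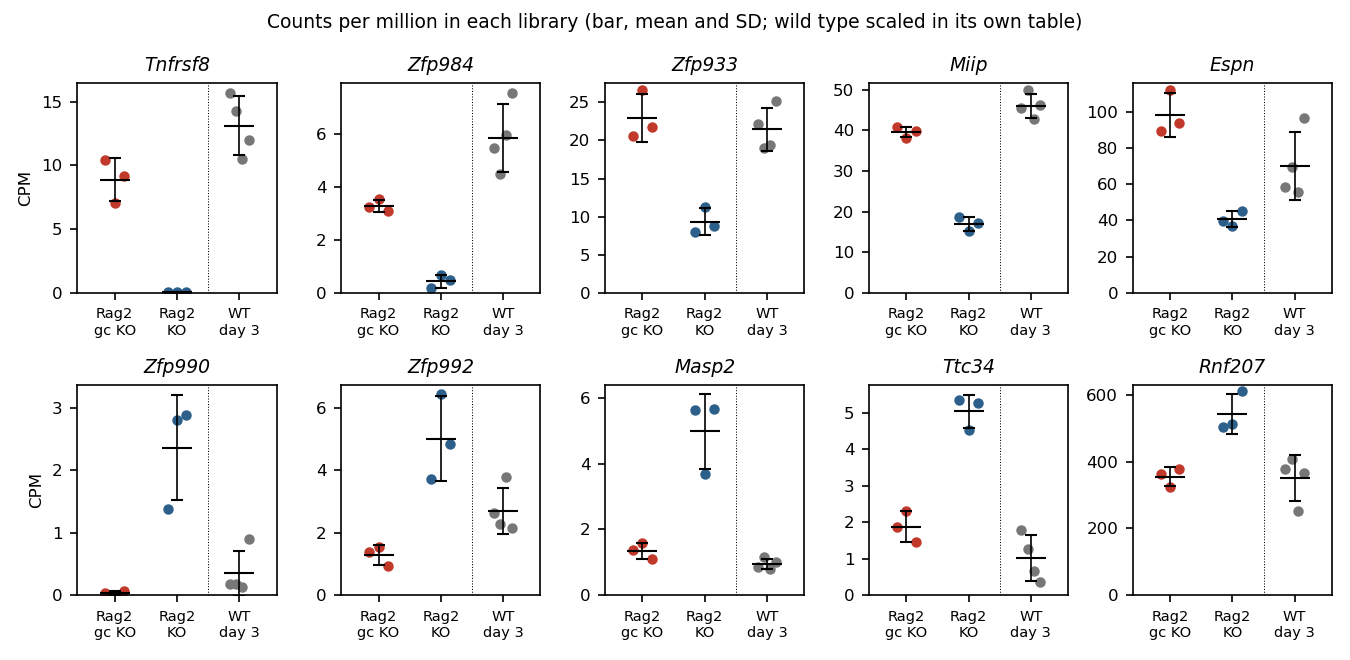
CPM (vertical axis, from 0) of 10 called members in each library of Rag2 gc KO and Rag2 KO (3 each) and WT day 3 (4 libraries, scaled in their own table), with mean and SD as bars. The upper row shows genes higher in Rag2 gc KO and the lower row genes lower in it; WT day 3 sits at 10.5 to 15.7 CPM for Tnfrsf8 and 0.795 to 1.15 CPM for Masp2.

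Of the metabolic genes described here, Eno1 was called higher. It encodes enolase, a glycolytic enzyme. It had 2764, 2749 and 2922 CPM in Rag2 gc KO, against 1820.15, 1557 and 1300.4 CPM in Rag2 KO, a log2 fold change of 0.85 ± 0.12 (SE). The ranges did not overlap, and the Rag2 KO libraries spread more widely. Pgd, of the pentose phosphate pathway (0.19), and H6pd, its counterpart in the endoplasmic reticulum (0.42), also lay apart and were not called.

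The Eno1 value cannot be separated from its copy Eno1b. The coding sequences of Eno1 and Eno1b differ at 8 of 1305 bases, an identity of 99.39%. Of 1256 stretches of 50 bases in them, 1014 hold no difference. The exon printed above is the coding exon with the most differences, 4 of the 8. Eno1b had 56.1, 53.5 and 63.6 CPM in Rag2 gc KO, against 763, 678 and 532 CPM in Rag2 KO. It took 1.91% to 2.13% of the pair's counts in Rag2 gc KO and 29.1% to 30.3% in Rag2 KO, and 0.978% to 2.44% in the 16 WT libraries. The sum of the pair was 2854 ± 131 CPM (of raw library totals) in Rag2 gc KO and 2224 ± 365 in Rag2 KO (SD, n = 3), with 2778 the lowest in Rag2 gc KO and 2582 the highest in Rag2 KO. The sum thus differed by less than Eno1 alone, and the Rag2 KO libraries stood apart from every other library in how the counts were split.

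**Figure D3:**
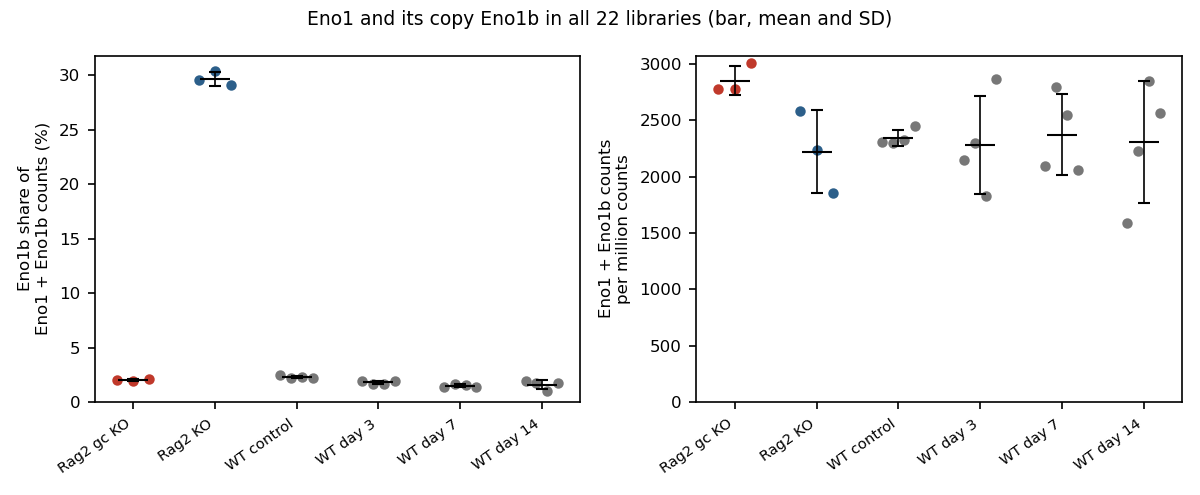
Share of Eno1b in the counts of Eno1 and Eno1b together (left, percent) and the pair's sum in CPM of raw totals (right) in the 22 libraries, with mean and SD as bars. The 3 Rag2 KO libraries lie at 29.1% to 30.3%, and the other 19 at 0.978% to 2.44%.

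Smaller or less certain differences were spread over other roles. Masp2, a protease that starts the lectin pathway of complement, had 1.38, 1.59 and 1.10 CPM in Rag2 gc KO, against 5.64, 3.68 and 5.66 CPM in Rag2 KO (-1.88 ± 0.27). Its model overlaps Tardbp, with which it shares 52.5% of its stretches, and Tardbp itself had a log2 fold change of 0.02. Ttc34, a gene of little-known role, had 1.86, 2.31 and 1.45 CPM in Rag2 gc KO, against 5.35, 4.52 and 5.26 CPM in Rag2 KO (-1.43 ± 0.24). Rnf207, a ring finger gene known from the heart, had 363, 323 and 379 CPM in Rag2 gc KO, against 505, 514 and 612 CPM in Rag2 KO (-0.61 ± 0.10). Their ranges lay apart in each case.

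Among genes of protein turnover and RNA processing, changes were below 2-fold. Fbxo44, a substrate receptor of a ubiquitin ligase, had 51.7, 49.9 and 49.7 CPM in Rag2 gc KO, against 33.4, 27.5 and 27.4 CPM in Rag2 KO (0.78 ± 0.09). Ube2j2, an enzyme that passes on ubiquitin at the endoplasmic reticulum, had 60.5, 62.1 and 59.7 CPM in Rag2 gc KO, against 44.0, 41.9 and 43.6 CPM in Rag2 KO (0.49 ± 0.06). These were 2 of the 11 members on the traffic and ubiquitin list. Ssu72, a phosphatase of RNA polymerase, was called higher by 0.41 and Ccnl2, a cyclin tied to splicing, lower by -0.38, 2 of 9 on the RNA list. C1qtnf12, a secreted relative of C1q, was called higher by 0.70, with 34.4, 34.4 and 34.2 CPM in Rag2 gc KO, against 22.5, 20.5 and 20.5 CPM in Rag2 KO. The ranges lay apart for 9 of the 18 members listed under transcription and chromatin, among them Hes5, a Notch target (-0.74). Under kinase signalling and growth control it was 6 of 11. Under mitochondria and peroxisomes it was 5 of 9, among them Mfn2, which fuses mitochondria (0.26). The ranges lay apart for 49.3% of all 142 members tested and 22.1% of all genes, and 14.1% and 0.465% were called. Nothing is read from these lists.

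Per length, the members spanned 0.137 to 773 FPKM (fragments per kilobase, scaled by depth) on average over the 6 libraries, with a median of 8.25, 23 members under 1 and 63 over 10. The highest were Gnb1, a G-protein subunit of rods (773), Eno1 (405), Clstn1 (254), Icmt (174) and Samd11 (107). Of these Eno1 was called. Nppa, the member that did not reach the test, had 0.149, 0.216 and 0.283 CPM in Rag2 gc KO, against 0.693, 0.469 and 0.298 CPM in Rag2 KO. Of 39 other transcripts tested in the stretch, such as antisense RNAs, 2 were called, where 0.465% of all genes were called. As the strain contrast picked the stretch, nothing is read from this count. Gm47252 had 4.995, 3.78 and 4.92 CPM in Rag2 gc KO, against 15.2, 13.4 and 15.1 CPM in Rag2 KO, and Ube4bos1 had 19.5, 21.3 and 13.3 CPM, against 4.82, 4.75 and 3.71 CPM. They overlap Samd11 and Ube4b. In all, 67 members overlap another gene model, 58 of them on the other strand, and without a stated strand setting reads of such partners cannot be told apart.

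WT day 3 is described beside the strains without a test, because its table was scaled separately. Marker lists of other eye tissues differed too. The cornea and conjunctiva list took 0.476% to 3.28% of counts at WT day 3. It took 0.00088% to 0.00129% in Rag2 gc KO and 0.000706% to 0.00136% in Rag2 KO. The lens list took 3.3% to 6.39% at WT day 3, against 0.0279% to 1.01% and 0.276% to 0.979%. The part of these tissues in the levels below was not tested. The median gene of all tested was 0.143 (log2) higher in Rag2 gc KO than in WT day 3, and 0.151 higher in Rag2 KO. Tnfrsf8 had 10.5 to 15.7 CPM at WT day 3 (median 13.1, n = 4), near Rag2 gc KO. Zfp990 had 0.132 to 0.892 CPM, between the strains, and 3 of its 4 libraries lay at or under 0.184 CPM. Gm16503 (0.927 to 1.51 CPM), Zfp984 (4.47 to 7.55), Zfp933 (19.1 to 25.2) and Miip (42.7 to 49.9) overlapped or exceeded the Rag2 gc KO range. Espn reached it in day 3 replicate 4 alone (96.7 CPM). Its other day 3 libraries, with 58.5, 69.5 and 56.0 CPM, lay between the strains. Masp2 reached the Rag2 gc KO range in day 3 replicate 2 alone (1.15 CPM), and its other day 3 libraries lay below, at 0.795 to 1.01 CPM. Ttc34 reached that range in day 3 replicate 1 alone (1.78 CPM), and its others lay below, at 0.357 to 1.27 CPM.

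For other members the WT day 3 mean was nearer to Rag2 KO. Fbxo44 had 27.2 to 33.2 CPM at WT day 3, which overlapped Rag2 KO. C1qtnf12 had 21.4 CPM in day 3 replicate 1, within the Rag2 KO range, and 24.3 to 28.0 CPM in the others, between the strains. Zfp992 had 2.14 to 3.77 CPM, with 3 of its 4 libraries between the strains. Tnfrsf25 had 8.20 to 14.7 CPM, above either strain. Of the 15 members with ranges apart and at least 2-fold between strains, the WT day 3 mean was nearer to Rag2 gc KO for 13 (86.7%), measured on log2(CPM + 0.1). Among the other genes tested with ranges apart and at least 2-fold, 235 of 379 (62.0%) were nearer to Rag2 gc KO. These genes were of any type and without the members' count minimum, so the shares are not a like comparison. Of the 20 called members it was 14 (70.0%), of all 142 tested 84 (59.2%), and of all genes tested 57.2%. These shares describe 1 WT group, and table, strain and tissue make-up cannot be told apart.

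The WT time course asked, independently of the choice of members, whether these genes moved with CNV. At day 3, 11 of the 137 members tested were lower than in control and 0 higher by edgeR (8.03%), where 14.7% of all genes were called, 6.97% higher and 7.77% lower. Chd5, a chromatin remodeller of neurons, had 75.6, 83.1, 53.2 and 62.6 CPM at day 3, against 124, 129, 127 and 148 CPM in control, and fell by 0.95 ± 0.26 on the log2 scale (SE), with an edgeR adjusted p of 0.0307. Kif1b, a kinesin that carries mitochondria and vesicles along axons, fell to 616 ± 113 CPM at day 3, against 1004 ± 59 CPM in control (SD, n = 4; -0.70 ± 0.21, edgeR adjusted p = 0.0397). Casz1, a transcription factor of retinal progenitors, fell to 265 ± 43.7 CPM, against 409 ± 12.7 CPM (-0.63 ± 0.17, edgeR adjusted p = 0.0325). Per3, of the circadian clock, had 117, 124, 113 and 98.2 CPM at day 3, against 175, 173, 174 and 164 CPM in control (-0.60 ± 0.12, edgeR adjusted p = 0.0145). In these 4 genes every day 3 library lay below every control. With 1 library left out at a time, the calls of Chd5, Kif1b and Casz1 were each lost in 7 of 8 fits and that of Per3 in 1. With lens and cornea scores as covariates, Chd5, Kif1b and Casz1 were at -0.33, -0.25 and -0.17 and were not called. Others that fell were Clcn6, a chloride transporter of late endosomes (-0.58), Ajap1 (-0.57), Gpr153 (-0.49), Rere, a nuclear corepressor (-0.46), Tmem201, of the inner nuclear membrane (-0.43), and Mfn2 (-0.38).

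At day 7, 21 of 137 members were called by edgeR (15.3%), 8 higher and 13 lower, where 10.5% of all genes were called, 3.62% higher and 6.90% lower. TNF receptor genes moved in opposite directions. Tnfrsf4 rose to 4.62, 3.74, 2.66 and 3.62 CPM at day 7, against 1.36, 1.57, 2.16 and 1.56 CPM in control (1.13 ± 0.32, edgeR adjusted p = 0.0384). Tnfrsf18 fell to 1.90, 2.83, 3.43 and 4.05 CPM, against 6.43, 6.17, 7.24 and 4.74 CPM (-1.01 ± 0.30, edgeR adjusted p = 0.0449). Fv1, which blocks infection by murine leukaemia virus, fell to 3.45 ± 0.80 CPM, against 6.29 ± 0.39 CPM (SD, n = 4; -0.86 ± 0.23, edgeR adjusted p = 0.0325). With 1 library left out at a time, the calls of Tnfrsf4 and Fv1 were lost in 6 of 8 fits and that of Tnfrsf18 in 7, and none of the 3 was called with lens and cornea scores as covariates. Fbxo6, which marks misfolded glycoproteins for degradation, rose by 0.70 and Thap3 by 0.59, as did A430005L14Rik by 0.61 and Perm1, a regulator of mitochondria in muscle, by 0.56. Kif1b (-0.84), Casz1 (-0.81) and Ajap1 (-0.70) were lower at day 7 too. Days 3 and 7 share their controls. Per3 at day 7 was at -0.23 (edgeR adjusted p = 0.212), and the difference of day 7 from day 3 was 0.37 (edgeR adjusted p = 0.731). At day 14 edgeR called 0 members, where 0.273% of all genes were called, 0.0322% higher and 0.241% lower. Of the members, 42 had an unadjusted p under 0.05, as did 24.8% of all genes, and DESeq2 called 17, against 9.65% of all genes.

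Marker lists of other eye tissues moved with the WT groups, and their part in these calls was not tested beyond 1 fit with covariates. The lens list took 3.3% to 6.39% of counts at day 3, 0.0109% to 4.58% at day 7 and 0.0899% to 14.7% at day 14, against 0.0278% to 1.61% in control. The rod list took 2.27% to 3.82% at day 3, 3.00% to 5.29% at day 7 and 1.11% to 4.98% at day 14, against 4.98% to 5.58% in control, and the cornea and conjunctiva list 0.476% to 3.28%, 0.530% to 2.69% and 0.572% to 1.67%, against 0.251% to 0.740%. With lens and cornea scores as covariates, 3 members were called at day 3 and 6 at day 7, where 1.44% and 5.96% of all genes were called. Scaled by library totals, the split was 3 higher and 6 lower at day 3, where 7.53% of all genes were higher and 5.38% lower. At day 7 it was 8 higher and 3 lower, where 4.28% of all genes were higher and 3.38% lower. At day 3 the count was 6, 1 and 3 without day 3 replicates 1, 3 and 4, and 4, 2, 0 and 2 without control replicates 1, 2, 3 and 4. At day 7 it was 0 without day 7 replicate 1 or replicate 2, and 6, 3, 0 and 5 without control replicates 1, 2, 3 and 4.

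Of the markers of the stretch, Tnfrsf8, Eno1 and Espn were tested in the WT time course and were not called, and Zfp990 was not tested. Tnfrsf8 averaged 13.1 ± 2.3 CPM at day 3, 13.4 ± 0.86 at day 7 and 14.0 ± 6.1 at day 14, against 13.4 ± 1.8 in control (SD, n = 4). Its log2 fold changes were -0.04, 0.00 and 0.06, with edgeR adjusted p of 0.939, 0.999 and 0.897. Day 14 replicate 1 stood apart with 5.13 CPM, against 14.8 to 18.5 CPM in the other day 14 libraries, and it also held the 14.7% of lens and 1.11% of rod counts given above. Without it the day 14 log2 fold change was 0.36 (edgeR adjusted p = 0.213), and 0 members were called. Eno1 had -0.01, 0.01 and 0.01, and Espn 0.46, 0.27 and 0.47, with edgeR adjusted p of 0.0918, 0.318 and 0.147. Zfp990, which did not pass the filter on low counts in WT, stayed at 0 to 0.892 CPM in all 16 WT libraries. Of the 7 zinc finger members tested in WT, edgeR called 0 at day 3, day 7 and day 14, DESeq2 called 1, 0 and 2, and 2, 2 and 4 had an unadjusted p under 0.05.

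**Figure D4:**
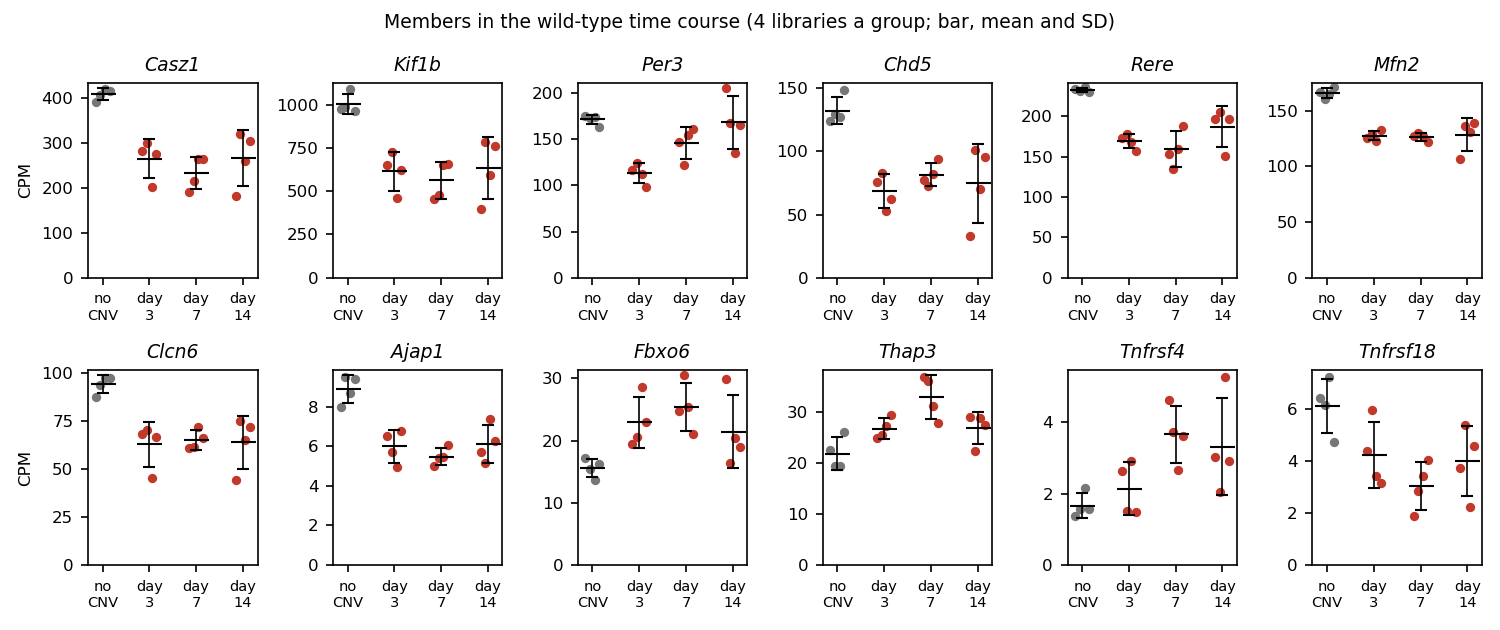
CPM (vertical axis, from 0) of 12 members in the 16 WT libraries, from controls without CNV to day 3, day 7 and day 14 after the laser, with mean and SD over 4 libraries as bars. For Chd5, Kif1b, Casz1 and Per3 the day 3 libraries all lie below the controls, and Tnfrsf4 and Tnfrsf18 move apart at day 7.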

How the data were processed

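The authors deposited 1 table for the Rag2 strains and 1 for the wild type, each with raw counts per gene and library, and FPKM values, per the file headers. Counts were made with featureCounts 1.5.0-p3 on mm10, as the submitters' processing notes list. Which aligner, annotation and strand setting were used is not given in the sources used here. FPKM were used as deposited and only to compare levels between genes.

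From the counts, edgeR 4.0.16 in R 4.3.3 kept genes by filterByExpr (minimum count 10, minimum total 15), scaled them by TMM and fitted a robust quasi-likelihood model of group means within each table, over 6 and 16 libraries. Benjamini-Hochberg adjustment ran over the 18923 or 18657 genes tested, and a gene was called at an adjusted p under 0.05. The depths of 15033983 to 30315086 counts limit what can be said of genes with a few counts, and intervals cover counting error only. DESeq2 1.42.0 was an alternative, as were other scalings, filters, covariates and leaving out each library. The model was tested on simulated data.

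The members, lists and alternatives were chosen with earlier results of these data known. Named genes are the 4 markers of the stretch, the members furthest apart between strains or among the 5 highest and lowest called in a wild-type comparison, the most expressed, those at the edges of the rule and the leading members of each role list. Others called in a comparison are named after their values were seen, and some called members are not reported here. Control replicate 4 is titled without CNV but carries a laser treatment tag; it was kept as a control. Sequences are from RefSeq (GRCm38.p6) and GENCODE M21.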

Additional observations from a re-analysis of the deposited data

Results flagged for a closer look

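In 128 groups of 4 wild-type libraries, over the 32 genes with wild-type values above, 5 held a library far from the other 3, where chance flags about 1 in 20. In day 3 replicate 3, Clcn6 had 45.6 CPM, against 66.8 to 70.7 CPM in the other day 3 libraries, and Tmem201 had 81.3 CPM, against 109 to 113 CPM. The cornea and conjunctiva list took 3.28% and the rod list 2.27% of the counts of day 3 replicate 3. Zfp990 had 0.892 CPM in day 3 replicate 4, against 0.132 to 0.184 CPM in the others. Tnfrsf25 had 39.4 CPM in day 14 replicate 1, against 2.79 to 6.62 CPM in the others. The lens list took 14.7% and the rod list 1.11% of the counts of day 14 replicate 1. The part of these tissues in the flagged values was not tested. Gm16503 had 1.30 CPM in control replicate 4, against 2.17 to 2.30 CPM in the other controls.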

How the results depend on the processing

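For the Rag2 strains, where 20 members were called, DESeq2 called 38, no filter on low counts gave 36, and the count was 4 to 14 with 1 library left out. At day 3 (11 called), DESeq2 gave 23, no filter 3, only the compared groups in the fit 52, and lens and cornea scores as covariates 3, with 0 to 12 when 1 library was left out. At day 7 (21 called), scaling by library totals gave 11, no filter 7, only the compared groups 36 and the covariates 6, with 0 to 22 when 1 library was left out. At day 14 (0 called), DESeq2 gave 17, and leaving out 1 library 0 to 1. Over all genes, DESeq2 called 3.66% between the strains and 9.65% at day 14. With the covariates 1.44% of all genes were called at day 3 and 5.96% at day 7. For the other settings the share over all genes is not given here. The counts in this section show how calls shift with the processing and are not read as results about the members. The cause of these shifts was not tested, except that leaving out a library leaves fewer samples. No named gene changed sign while called. With the replicate number as a block, 8 members were called between the strains, 12 at day 3, 15 at day 7 and 0 at day 14. Deviations of same-numbered libraries had r from -0.0582 to 0.078 between the strains and from -0.27 to 0.325 between wild-type days and control. No values for differently numbered libraries are given here, so these r cannot decide whether the numbers pair the samples. Genes with a few counts in a group, such as Zfp990 and Zfp982, are limited by depth.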
